A study of Mus musculus with 31 samples.

Results

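A set of 9 genes of spinal dorsal horn neurons, most of them genes of inhibitory neurons, was followed across ribosome pulldown libraries from mouse sensory neurons. They were taken by symbol through the GENCODE M21 annotation of GRCm38 and were 9 of the 55536 gene identifiers in each of the 2 deposited tables: Gad1, Gad2, Slc32a1, Slc6a5, Slc12a5, Sst, Npy, Lamp5 and Sall3. The members were chosen by their level in Cre central axon libraries against Cre soma libraries of the same batch, so that difference is given here as a description without a test.

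The libraries come from translating ribosome affinity purification (TRAP), in which a GFP-tagged ribosomal protein L10a is pulled down together with the RNA on its ribosomes. Cre mice were Nav1.8-Cre;L10a-eGP-fl/fl, as the labels spell it, in which the promoter of the sensory neuron sodium channel Nav1.8 (Scn10a) drives the recombinase that switches on the tag. Control mice were L10a-eGP-fl/fl and carried the same tagged allele without Cre. Each genotype gave central axons (lumbar dorsal root with spinal cord) and dorsal root ganglion (DRG) somas in batch 1, and peripheral axons (sciatic nerve) and a further set of DRG somas in batch 2, which makes 8 groups and 31 libraries. Every group held 4 biological replicates except the peripheral axon controls, which held 3. Age, sex and any pooling of animals are not given in the sources used here. Axon libraries started from less than 100 pg of RNA, per the labels.

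Total counts ran from 3.60 to 19.6 M (mega) per library, and a floor of 3 counts corresponded to 0.153 to 0.833 CPM (the usual depth-scaled unit, the count relative to the library total). Scn10a was at 421, 105, 123 and 45.1 CPM in Cre central axons, at 2.10, 0, 0 and 29.9 CPM in control central axons, and between 33.4 and 625 CPM in all 16 soma libraries. Control somas therefore also held RNA of the targeted gene. Control central axon replicate 3 had 7251 genes with at least 10 counts, against 10890 to 15153 in the other 3 controls of that tissue, and control soma replicate 3 of batch 1 had 4934.

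As background, inhibitory neurons of the dorsal horn hold back sensory input with GABA and glycine. GABA is made from glutamate by the glutamic acid decarboxylases Gad67 (Gad1) and Gad65 (Gad2). The vesicular transporter VGAT (Slc32a1) loads GABA and glycine into synaptic vesicles, and GlyT2 (Slc6a5) returns glycine to the terminals of glycinergic neurons. KCC2 (Slc12a5) exports chloride from mature central neurons, which makes GABA and glycine receptors hyperpolarizing, and it is known as a transporter that primary sensory neurons largely lack. Somatostatin (Sst) and neuropeptide Y (Npy) are peptides of dorsal horn interneurons, Sst also being a marker of a small class of DRG neurons that signal itch. Lamp5 codes for a membrane protein of vesicles in forebrain and spinal neurons, and Sall3 for a zinc finger transcription factor.

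Because the 9 genes were high in the same libraries, the bases before their RefSeq start sites were searched for shared motifs on both strands. RefSeq promoters on GRCm38.p6 matched 8 of the 9 genes, with 11 start sites in all, and Sall3 had no entry. Over the 250 bases before a start, TGACGTCA, the cyclic AMP response element, was found at 1 of the 11 start sites (Sst). It was in 1.55% of all 32851 promoters. CCAAT was found at 4 of the 11 start sites (Gad2, Slc12a5, Npy and Lamp5) and in 33.8% of all promoters. GGGCGG was found at 3 of the 11 (Gad1, Slc12a5 and Npy) and in 32.7%, and TATAAA at 1 (Gad1) and in 12.4%. No motif of the 4 was shared by all members. Shown as examples are 30 bases around the element of Sst (chr16:23890874-23890903, minus strand), the 128 bases of the Gad2 window that precede the first annotated start (chr2:22622077-22622204, plus strand) and the 250 bases before Npy (chr6:49822460-49822709, plus strand), with the motifs named above in capitals. The Sst bases lie before its RefSeq start but inside the GENCODE M21 gene, whose first annotated start is further upstream. The capitals in Npy mark the CCAAT match, which lies on the other strand, and then the GC box.
Sst: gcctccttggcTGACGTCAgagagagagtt
Gad2: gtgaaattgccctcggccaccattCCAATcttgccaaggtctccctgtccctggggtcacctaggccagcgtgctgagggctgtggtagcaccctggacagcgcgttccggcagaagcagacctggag
Npy: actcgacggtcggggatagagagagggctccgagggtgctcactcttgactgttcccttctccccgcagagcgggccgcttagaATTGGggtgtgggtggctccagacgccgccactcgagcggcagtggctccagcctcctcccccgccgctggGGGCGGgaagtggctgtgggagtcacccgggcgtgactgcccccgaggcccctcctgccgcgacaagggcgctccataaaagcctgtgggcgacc
A match here is a match of letters only, and the data hold no measurement of these promoters.

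All 9 genes were high in central axon libraries of both genotypes and near 0 in every other group. Summed over the 9 genes, Cre central axons held 405, 947, 582 and 1127 CPM (765 ± 330, SD, n = 4) and control central axons 1547, 1746, 1107 and 1176 CPM (1394 ± 304, SD, n = 4). Outside the central axon groups the summed level was at most 16.2 CPM in any of the other 23 libraries. The share of all counts was 0.0765% ± 0.0330 (SD, n = 4) in Cre and 0.139% ± 0.0304 (SD, n = 4) in control central axons. All 9 genes had at least 10 counts in 7 of the 8 central axon libraries, and 7 of the 9 had them in the other one, control replicate 3. In bulk libraries fewer cells of a type and less RNA per cell cannot be told apart.

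**Figure D1:**
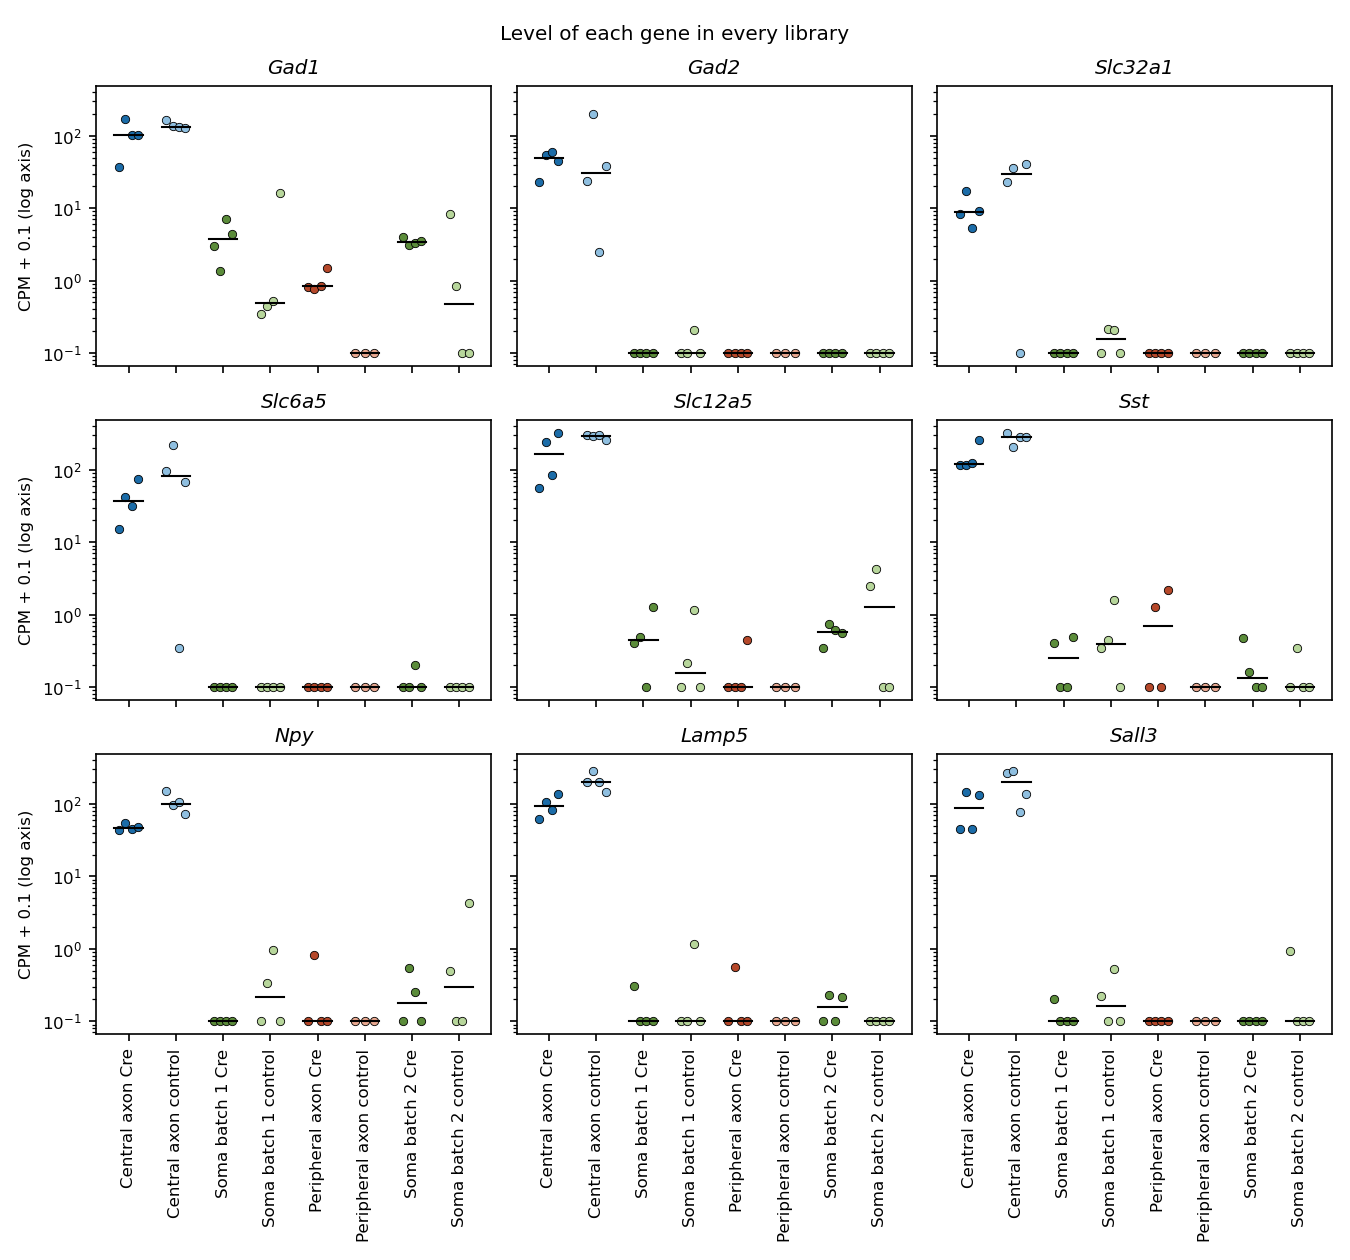
Level of each of the 9 genes in every library, in CPM plus 0.1 on a log axis, by group; points are libraries and bars are medians. The central axon libraries of both genotypes stand above all others for every gene, except that control replicate 3 falls to 0 for Slc32a1 and to 0.247 CPM for Slc6a5.

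Among the enzymes of GABA synthesis, Gad1 (chr2:70553072-70602014, plus strand) was at 37.2, 169, 104 and 103 CPM in Cre central axons and at 163, 134, 131 and 128 CPM in control central axons. Cre somas of batch 1 held 2.90, 1.27, 6.99 and 4.37 CPM, and Cre somas of batch 2 held 3.87, 2.96, 3.26 and 3.43 CPM. Gad1 was thus the only member with at least 10 counts in all 8 Cre soma libraries. Control somas were less even, with 0.245, 0.352 and 0.431 CPM in replicates 1, a and 3 of batch 1 but 16.2 CPM in replicate b, and with 8.19, 0.740, 0 and 0 CPM in batch 2. Peripheral axons held 0.730, 0.664, 0.732 and 1.39 CPM with Cre and no count in the 3 controls. Over the pooled counts of each group, Gad1 was 26.2-fold higher in Cre central axons than in Cre somas (95% interval 22.3 to 30.97, counting error only), the smallest such ratio among the 9.

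Gad2 (chr2:22622205-22693874, plus strand) was almost confined to the central axon groups. Its level was 22.5, 53.3, 60.2 and 44.9 CPM in Cre and 23.6, 199, 2.35 and 37.7 CPM in control central axons. The 23 other libraries held 1 count of Gad2 together. Control replicates 2 and 3 of the central axons lay above and below all 4 Cre libraries, so the control group spanned the Cre group. Over pooled counts Gad2 was at least 593-fold higher in Cre central axons than in Cre somas of batch 1, where no count was found, taking the floor of 3 counts over the group.

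The 2 transporters of inhibitory transmitters were also almost confined to the central axon groups. Slc32a1 (chr2:158610767-158615748, plus strand) was at 8.30, 17.2, 5.15 and 9.09 CPM in Cre and at 22.9, 35.6, 0 and 40.5 CPM in control central axons. Slc6a5 (chr7:49910146-49963856, plus strand) was at 14.9, 41.9, 31.9 and 75.5 CPM in Cre and at 97.6, 219, 0.247 and 68.3 CPM in control central axons. Control replicate 3 was the lowest of the 8 libraries for both genes, and the other 3 controls lay above all Cre libraries for Slc32a1. Outside the central axons, Slc32a1 had 2 counts in all and Slc6a5 had 2 counts in all. Over pooled counts the difference between Cre central axons and Cre somas was at least 130-fold for Slc32a1 and at least 532-fold for Slc6a5. Slc32a1 shares 24.9% of its exon length with Gm14205 on the opposite strand, and without stated use of strand in the counting the reads of that stretch cannot be assigned to one of them.

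The chloride exporter Slc12a5 (chr2:164960802-164999731, plus strand) was at 55.5, 243, 85.8 and 319.6 CPM in Cre central axons. In control central axons it was at 304, 289.7, 303 and 258 CPM, the most even of the 9 genes in that group after scaling by its mean (289 ± 21.6, SD, n = 4). Cre replicate 4 lay above and the other 3 Cre libraries below all controls. Somas held at most 4.19 CPM, and the ratio of pooled counts was 428 between central axons and somas with Cre (95% interval 264 to 750, counting error only) and 891 without Cre (498 to 1786). Without Cre soma replicate 4, which held 9 of the 16 soma counts, the first ratio was 789.5, and control soma replicate 3 held 10 of the 11 counts behind the second.

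Of the peptides, Sst (chr16:23889573-23890958, minus strand) was at 115, 117, 125 and 261 CPM in Cre and at 324, 208, 288 and 287 CPM in control central axons. Cre replicate 4 was higher than control replicate 2, which is the only overlap between the 2 groups. Peripheral axons held 0, 1.20, 0 and 2.08 CPM with Cre, from 18 counts in replicate 2 and 12 in replicate 4, and no count in the controls. Somas held at most 1.51 CPM. 

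Npy (chr6:49822710-49829507, plus strand) was at 43.3, 54.3, 44.9 and 48.0 CPM in Cre and at 148, 95.1, 105 and 73.0 CPM in control central axons. The groups did not overlap, and the Cre libraries averaged 47.6 ± 4.83 CPM (SD, n = 4). Cre somas of batch 1 held no count of Npy, so the pooled difference from Cre central axons was at least 621-fold. The highest value outside the central axons was 4.21 CPM in control soma replicate 8 of batch 2.

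Lamp5 (chr2:136052239-136069917, plus strand) was at 62.5, 105, 81.0 and 136 CPM in Cre and at 200.3, 284, 200.3 and 145 CPM in control central axons, again without overlap. Sall3 was at 45.5, 146, 44.4 and 131 CPM in Cre and at 263, 282, 76.9 and 138 CPM in controls, with overlap. In the other groups Lamp5 reached at most 1.08 CPM and Sall3 at most 0.830 CPM. Sall3 had 1 count in the 4 Cre soma libraries of batch 1 and Lamp5 had 2.

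Levels of different genes can be compared only roughly per kilobase of exon, here the union of all annotated exons of a gene. Even coverage along the genes was not checked. The order in control central axons was Sst (384 ± 68.3 CPM per kb, SD, n = 4), Npy (186 ± 55.8), Lamp5 (70.7 ± 19.5), Slc12a5 (38.8 ± 2.89), Sall3 (25.4 ± 13.2), Gad1 (18.2 ± 2.09), Slc6a5 (13.4 ± 12.7), Gad2 (11.2 ± 15.4) and Slc32a1 (8.85 ± 6.47). The ranges of neighbours did not overlap among Sst, Npy, Lamp5 and Slc12a5. From Slc12a5 downward every neighbour overlapped the next. In Cre central axons Sst (214 ± 98.3), Npy (84.1 ± 8.54), Lamp5 (32.8 ± 10.8) and Slc12a5 (23.6 ± 16.9) again led and Slc32a1 (3.55 ± 1.84) was again last, but there Lamp5 and Slc12a5 overlapped. On this scale the peptide genes exceeded the genes of transmitter synthesis and transport in both genotypes. In plain CPM, Sst (277) was above but Npy (105) below Gad1 (139) in control central axons.

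**Figure D2:**
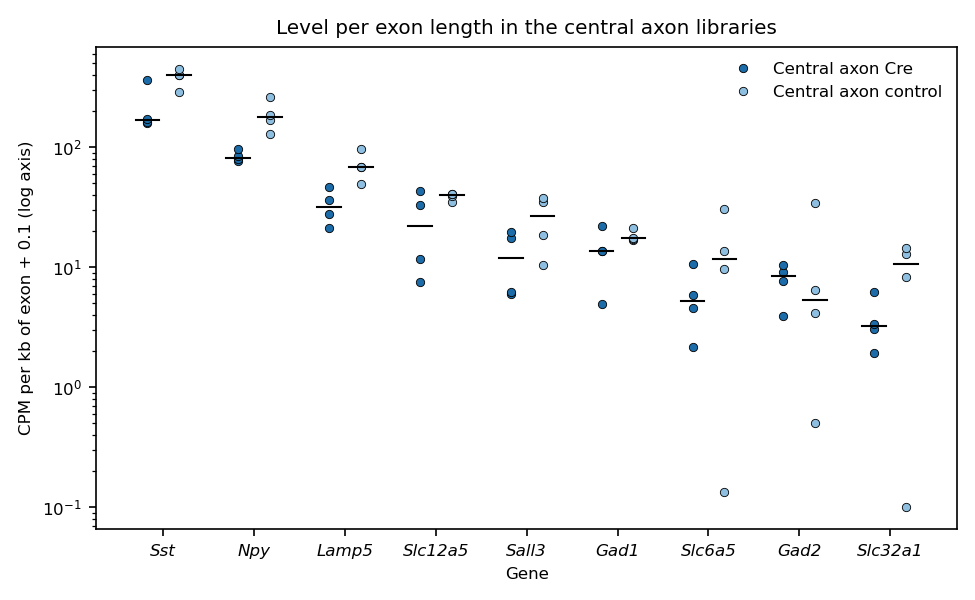
Level per kilobase of exon plus 0.1 on a log axis in the 8 central axon libraries, genes ordered by their mean in controls; points are libraries and bars are medians. Sst, Npy and Lamp5 lead in both genotypes, and the control values of Gad2, Slc6a5 and Slc32a1 spread the most.

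Control central axons were compared with control somas of batch 1, which asks whether the 9 genes are in the central axon pulldown without any tagged ribosome. After the filter on low counts 7 of the 9 genes were tested, since Slc32a1 and Slc6a5 did not have enough counts in enough libraries. All 7 had groups that did not overlap, with every central axon library above every soma library, against 11.6% of the 9202 genes tested. Low genes pass this filter through the group where they are high. Apart from Gad1, the members reached at most 1.51 CPM in any control soma library of batch 1. They thus passed through the central axon libraries, and the filter largely fixed their lack of overlap. The count therefore describes the 7, is not read as support, and does not stand for all 9. The median log2 fold change of the 7 was 7.58, and stayed 7.58 with Gad2 at its bound against the floor, beside -0.16 over all genes tested. Single values were 8.02 (SE 2.24) for Slc12a5, 7.33 (SE 2.08) for Sst, 7.58 (SE 2.43) for Lamp5, 6.79 (SE 2.56) for Npy and 4.62 (SE 2.07) for Gad1. Except for Gad1, their size rested on 2 soma libraries. Without control soma replicate 3 the log2 values were 12.17 for Slc12a5, 10.11 for Sst, 13.78 for Lamp5 and 9.88 for Npy. Without control soma replicate b they were 4.40, 3.79, 3.90 and 3.22 in the same order, and Gad1 stayed between 4.22 and 4.74 with any 1 library left out.

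No gene of the 9202 (0%) passed an adjusted p of 0.05 in edgeR's quasi-likelihood test, and neither did any of the 7 members, whose adjusted p ran from 0.205 to 0.365. At an unadjusted p under 0.05 there were 1138 genes (12.4%), with all 7 members among them. DESeq2 called 392 genes (4.26%) with 4 members (Gad2, Slc12a5, Sst and Sall3) among them. EdgeR fitted over the 4 batch 1 groups together called 3855 of 15355 genes (25.1%) with the 7 members among them. Slc32a1 and Slc6a5 passed the filter of that fit only with the Cre central axon libraries by which the members were chosen, so they are not counted. The direction of the members other than Gad1 was largely set by the filter, so these counts of members are not read as support.

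Over pooled counts the ratio of control central axons to control somas was 34.7 for Gad1 (95% interval 29.3 to 41.4), 506 for Sst (324 to 840.1), 369 for Npy (201 to 771), 690 for Lamp5 (375 to 1439) and 1326 for Sall3 (568 to 4084), counting error only, and at least 1066 for Slc6a5. A single soma library held most of the soma counts of each of these genes except Slc6a5, which had none. For Gad1 it was replicate b, with 129 of 138 counts, and without it the ratio was 407 (214 to 891). For the others it was replicate 3, with 14 of 19 counts of Sst, 8 of 10 of Npy, 10 of 10 of Lamp5 and 4 of 5 of Sall3. Without that library the ratio was 1396 for Sst (598 to 4301), 1342 for Npy (371 to 11086) and 4818 for Sall3 (864 to 190316), and at least 1671 for Lamp5, which then had no soma count. These ratios without a library were added after the data were seen.

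Other genes of spinal tissue were given from lists. Of 14 further genes of inhibitory dorsal horn neurons 7 were tested in the same comparison, with 5 above and 2 below 0 and a median log2 fold change of 5.78. Pnoc, the precursor of nociceptin, averaged 64.6 ± 21.5 CPM (SD, n = 4) in control central axons and 0.0856 ± 0.112 in control somas. Lhx1, a transcription factor of inhibitory interneurons, averaged 82.2 ± 51.8 and 0.0576 ± 0.0668 CPM. The 2 below 0 were Gal, the peptide galanin, with 24.8 ± 27.2 CPM in control central axons and 60.02 ± 78.4 in control somas, and Rora, a nuclear receptor, with 54.04 ± 54.9 and 71.6 ± 55.6 CPM. Their log2 differences of -1.59 (SE 2.15) and -0.79 (SE 1.90) were smaller than their SE. Among 23 genes of inhibitory synapses 19 were tested, 12 above and 7 below 0 with a median of 0.80. Glra1, the adult glycine receptor subunit, had 32.2 ± 12.6 CPM in control central axons and no count in control somas, and Slc6a11, a GABA transporter of astrocytes, had 151 ± 86.6 and 0.0539 ± 0.108 CPM. On the other side, Slc12a2, the chloride importer NKCC1, averaged 15.7 ± 10.6 CPM in control central axons and 143 ± 214 in control somas, a log2 difference of -5.07 with an SE of 2.13. Gabbr2, a subunit of the GABA-B receptor, averaged 93.95 ± 90.1 and 244 ± 267 CPM, a log2 difference of -3.08 with an SE of 1.62. Of 14 genes of excitatory dorsal horn neurons 4 were tested, 1 above and 3 below 0. None of these genes passed edgeR's adjusted p of 0.05.

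In batch 1 the astrocyte sums had the same order of group means as the sums of the 9 neuronal genes. So had the sums of oligodendrocyte lineage, satellite glia and inhibitory synapse genes. By medians the order of the 2 soma groups was the reverse. Control and Cre somas had medians of 4.17 and 21.6 CPM for the astrocyte genes and 3.39 and 4.89 CPM for the 9 genes. The 8 astrocyte genes summed to 1913 ± 411 CPM (range 1424 to 2418, n = 4) in control and 1048 ± 505 CPM (332 to 1500.2, n = 4) in Cre central axons, against 50.04 ± 94.3 and 21.7 ± 17.1 CPM in control and Cre somas of batch 1. None of the 8 was at 0 in either central axon group. Gfap, the intermediate filament of astrocytes, was at 443, 591, 1074 and 1530 CPM in control central axons. The ratio of the summed dorsal horn genes to the summed astrocyte genes was 0.812 ± 0.290 in Cre and 0.772 ± 0.295 in control central axons (SD, n = 4 each), a difference smaller than the spread within either group. The 10 genes of the oligodendrocyte lineage summed to 2256 ± 1551 and 678 ± 454 CPM in control and Cre central axons. The part of glial RNA in the values of the 9 genes was not tested.

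**Figure D3:**
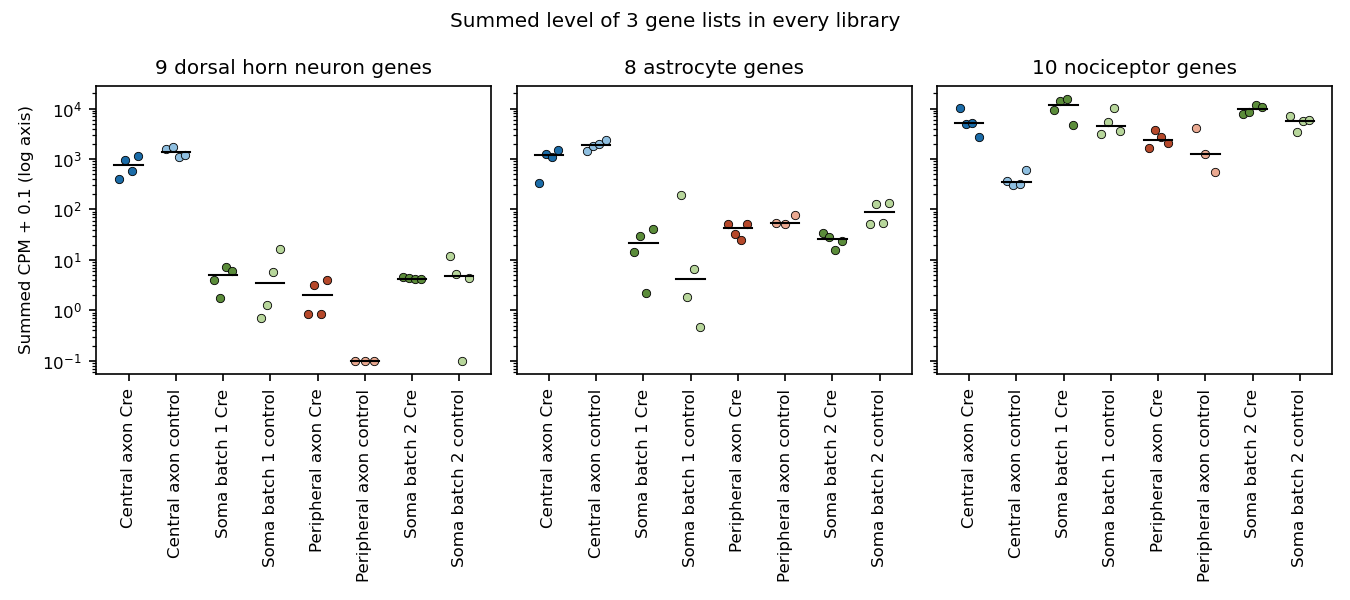
Summed CPM plus 0.1 on a log axis of the 9 dorsal horn neuron genes, 8 astrocyte genes and 10 nociceptor genes in every library, by group; points are libraries and bars are medians. The dorsal horn and astrocyte sums are high in both central axon groups, and the nociceptor sum is low in control central axons (310 to 600.4 CPM) but not in Cre central axons (2722 to 10073 CPM).

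Cre central axons were then compared with control central axons, which sets their level with tagged ribosomes beside the level without any. The Cre libraries here are those by which the members were chosen, so the counts describe the 9 and are not independent of that choice. All 9 were tested and all 9 log2 fold changes were below 0, with a median of -1.04 beside 0.11 over the 14189 genes tested. The share of all genes below 0 is not given here. None of the 9 passed an adjusted p of 0.05 in edgeR, where 2 genes did (0.0141%), both higher with Cre. DESeq2 called none of the 9 either, among 216 genes (1.52%). At an unadjusted p under 0.05 the members were 3 (Lamp5, Npy and Sst), where 1.62% of all genes were lower at that level. Npy and Lamp5 were the 2 members without overlap between the groups, and 1.37% of all genes were lower with Cre without overlap.

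Lamp5 had a log2 fold change of -1.08 (SE 0.37, adjusted p = 0.671 in edgeR), Npy of -1.10 (SE 0.48, adjusted p = 0.991) and Sst of -0.83 (SE 0.36, adjusted p = 0.995). The other values were -1.28 (SE 1.48) for Slc32a1, -1.20 (SE 1.15) for Slc6a5, -1.04 (SE 0.55) for Sall3, -0.72 (SE 0.48) for Slc12a5, -0.47 (SE 1.01) for Gad2 and -0.42 (SE 0.46) for Gad1, all with an adjusted p of 0.9997. For Slc32a1, Slc6a5, Gad2 and Gad1 the SE was close to the size of the value or above it. The sign of Gad2 rested on 1 library: without control replicate 2 its log2 fold change was 1.11. A p above the threshold does not show that the groups are alike.

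**Figure D4:**
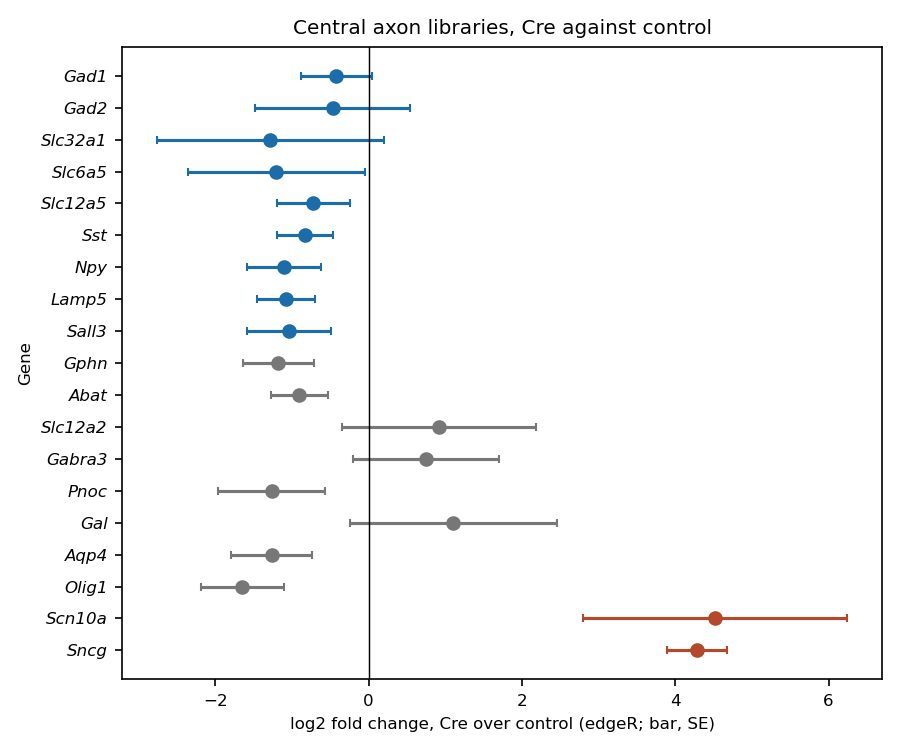
Log2 fold change of Cre over control central axons with its SE (edgeR) for the 9 genes (blue), genes of other lists (grey) and 2 nociceptor genes (red). All 9 dorsal horn genes lie below 0, Scn10a and Sncg lie above it, and the grey genes lie on both sides, with Slc12a2, Gabra3 and Gal above 0.

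The other spinal gene lists lay on both sides of 0. Of the 14 further inhibitory neuron genes 10 were below and 4 above 0 (median -0.38), of 23 inhibitory synapse genes 17 were below and 6 above (median -0.54), and of 8 astrocyte genes 7 were below and 1 above (median -0.87). Gphn, the anchor of glycine and GABA receptors, averaged 61.7 ± 18.5 CPM with Cre and 143 ± 54.6 without (SD, n = 4 each), a log2 difference of -1.18 with an SE of 0.46 (adjusted p = 0.838 in edgeR). Abat, the enzyme that breaks down GABA, averaged 179 ± 89.1 and 336 ± 39.3 CPM, a log2 difference of -0.90 with an SE of 0.37 (adjusted p = 0.919). Of the 6 above 0, Slc12a2 averaged 27.8 ± 17.1 CPM with Cre and 15.7 ± 10.6 without, a log2 difference of 0.92 with an SE of 1.26. Gabra3, a GABA-A receptor subunit, averaged 37.3 ± 22.6 and 21.9 ± 21.7 CPM, a log2 difference of 0.75 with an SE of 0.95. The 10 nociceptor genes all lay above 0 with a median of 5.10, and 1 of them passed the test: Sncg, a synuclein of sensory neurons, with 3503 ± 1287 CPM with Cre and 190.1 ± 23.5 without, a log2 difference of 4.28 with an SE of 0.39 (adjusted p = 0.00405 in edgeR). Of the other lists, oligodendrocyte lineage genes had 7 of 8 tested below 0 (median -0.93), satellite glia genes 5 of 5 (-0.79), fibroblast genes 5 of 6 (-1.25), microglia genes 2 of 3 (-0.95), Schwann cell genes 4 of 8 (0.05), general neuronal genes 4 of 10 (0.10), excitatory dorsal horn genes 6 of 10 (-0.72) and motor and cholinergic neuron genes 3 of 8 (1.07). The adjusted p of Sncg was 0.0618 without control replicate 1 and 0.0662 without control replicate 4.

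Within the 4 Cre libraries the 9 genes and the nociceptor genes ran in opposite order. Replicate 1 had the lowest sum of the 9 (405 CPM) and the highest nociceptor sum (10073 CPM), replicate 3 had 582 and 5246, replicate 2 had 947 and 4968, and replicate 4 had the highest sum of the 9 (1127 CPM) and the lowest nociceptor sum (2722 CPM). CPM are shares of one total, and 4 libraries allow no test of a correlation. The ratio of the 2 sums was 0.0402, 0.191, 0.111 and 0.414 in Cre replicates 1 to 4 and 4.13, 5.63, 3.44 and 1.96 in the control replicates. Every Cre library had fewer counts of the 9 genes per nociceptor count than every control library, and every somatic library had fewer than either, at no more than 0.00459.

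Control central axon replicate 3 was the lowest of the controls in 4 of the 9 genes. It held no count of Slc32a1, which allows at most 0.370 CPM, 2 counts of Slc6a5 and 19 of Gad2. Gad1 (1061 counts), Slc12a5 (2454), Sst (2332), Npy (853), Lamp5 (1622) and Sall3 (623) were well counted in it. Of these 6, all but Sall3 lay within the range of the other 3 controls in CPM, and Sall3, at 76.9, lay below it. Without this library 6 of the 9 members had an unadjusted p under 0.05 in edgeR for Cre against control central axons, in place of 3, all 6 lower with Cre, where 3.76% of 15282 genes were lower at that level in place of 1.62%. Still none passed the adjusted threshold.

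Peripheral axons gave no comparable signal. No count of any of the 9 genes was found in the 3 control libraries, whose totals of 4.54, 6.49 and 5.09 M allow up to 0.660, 0.462 and 0.589 CPM each. Cre peripheral axons summed to 0.730, 3.05, 0.732 and 3.81 CPM over the 9 genes. No member passed the filter on low counts for Cre against control peripheral axons, or for control peripheral axons against control somas of batch 2, so neither was tested (0% and 0.0802% of the tested genes were called there). Over pooled counts, control central axons exceeded control peripheral axons at least 759-fold for Gad1, 1553-fold for Slc12a5, 1522-fold for Sst and 135-fold for Slc32a1. The 2 axon types were in different batches, so batch and axon type cannot be told apart in these ratios.

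Relative to the control somas of the same batch, the difference between control central and control peripheral axons was fitted for all 9 genes. All 9 fitted values were above 0. Control peripheral axons held no count of any member, so the peripheral part could not lower any value. For Gad2, Slc32a1, Slc6a5 and Lamp5 the control somas of batch 2 held none either, so their sign came from the central axon part. Neither the size of the fitted values nor a call is read for the members. Over all genes, none of 15880 (0%) passed an adjusted p of 0.05 in edgeR, with 2458 (15.5%) at an unadjusted p under 0.05, and 731 passed in DESeq2.

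In somas only Gad1 had enough counts for a test of Cre against control. The fitted log2 value was -1.001 (SE 1.53, adjusted p = 0.758 in edgeR) in batch 1, where 4.42% of 11667 genes were called, and 0.73 (SE 1.33, adjusted p = 0.819) in batch 2, where 0% of 15280 were. Both are smaller than their SE. In batch 1 the sign rested on control replicate b, without which the value was 0.29. In batch 2 the size rested on control replicate 5, without which the value was 4.01 (adjusted p = 0.0729 in edgeR), where 11.7% of 15612 genes were called.

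The genes whose pattern was most like 3 of the members were sought over all 31 libraries by Pearson's r of log2(CPM + 1) among 18259 genes with at least 10 counts in at least 4 libraries. For Gad1 they were Shank2 (r = 0.936), a postsynaptic scaffold, Lmo3 (0.935) and Gfap (0.930). For Sst they were Lamp5 (0.993), Neurod2 (0.988), a neuronal transcription factor, and Fgfr3 (0.985), a growth factor receptor of astrocytes. For Lamp5 they were Sall3 (0.993), Sst (0.993) and the host gene Mir9-3hg (0.992). These values largely describe the step between the 8 central axon libraries and the 23 others. For Shank2 the step was not clean. It averaged 19.1 ± 37.7 CPM in control somas of batch 1, beside 39.3 ± 18.9 in Cre central axons (SD, n = 4 each). Neurod2 averaged 33.2 ± 12.5 CPM in Cre and 47.3 ± 21.8 in control central axons (SD, n = 4) and had no count in Cre somas of batch 1 or in either peripheral axon group.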

How the data were processed

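Raw counts per gene were deposited as whole numbers in 2 tables, 1 for each batch, with 1 column for each library. STAR 2.7.2b and mm10 are named in the submitters' processing notes, and the counting program and its use of strand are not given in the sources used here. In batch 1, 2 soma control columns share 1 name, so they were kept in their group as replicates a and b. All 55536 identifiers matched GENCODE M21.

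The 9 members and the 12 other lists were chosen with earlier results of these data known. Named list genes were at most 2 per direction and comparison with the smallest adjusted p.

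Each comparison was fitted on its own groups with edgeR 4.0.16 (R 4.3.3; filterByExpr with 10 and 15 counts, TMM, glmQLFTest), with Benjamini-Hochberg adjustment over all genes tested and a threshold of 0.05. The SE is the fold change over the square root of F. Tested on simulated data, the code recovered 92.0% of 199 changed genes among 14788 for control central axons against control somas. For Cre against control central axons it recovered 85.0% of 200 among 15908. These shares describe the code only, and the sensitivity of the fits to the real libraries was not tested. Those fits held 9202 and 14189 genes. Their biological coefficient of variation (edgeR's measure of spread between replicates) was 1.68 and 1.16, in the same order. The simulated counts were set to a smaller spread than either, and only well-counted genes were changed in them. Alternatives were other scalings, DESeq2 1.42.0, no filter, libraries left out, a replicate block and a fit over all groups of a batch. Library totals of 3.60 to 19.6 M limit the precision, and floors and intervals (Wilson or exact, 95%) cover counting error only.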

Additional observations from a re-analysis of the deposited data

Results flagged for a closer look

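Of 32 sets of 4 libraries (a gene in a group with at least 10 counts in 1 library), 9 had 1 library whose gap to the nearest other, divided by the range, was above Dixon's 95% critical value. Chance flags about 1 in 20 sets of normally distributed values, and sets of low counts are not such values. Where only 1 library of a set held a count, the ratio was 1 by construction. That was so for Npy in Cre peripheral axons, Lamp5 in control somas of batch 1 and Sall3 in control somas of batch 2. The number of flags is therefore not set against that rate. In control somas Gad1 was at 16.2 CPM in replicate b of batch 1 and at 8.19 CPM in replicate 5 of batch 2, above the other 3 of each group. Control soma replicate 3 of batch 1 was the high library for Slc12a5 (1.08 CPM) and Lamp5 (1.08 CPM). In batch 2 control somas Npy was high in replicate 8 (4.21 CPM) and Sall3 in replicate 5 (0.830 CPM). Cre peripheral axons were high in replicate 4 for Gad1 (1.39 CPM) and in replicate 2 for Npy (0.730 CPM). The 1 set among central axons was Sst in Cre, where replicate 4 was at 261 CPM and the other 3 between 115 and 125 CPM.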

How the results depend on the processing

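In Cre against control central axons 124 of 126 member values over the alternatives were below 0 and none passed the threshold; the exceptions were both Gad2, at 0.47 with the replicate block and between -0.88 and 1.11 with 1 library left out (1.11 without control replicate 2). In control central axons against control somas all 105 member values were above 0. The low-count filter, where used, largely fixed that direction for all but Gad1. Gad1 in somas of batch 1 changed sign with the replicate block (1.43), which also left out control replicates a and b. It ran from -1.54 to 0.29 with 1 library left out (0.29 without control replicate b). Whether the replicate numbers pair the samples could not be settled, and the main fits used no pairing. The deviations of the 15 same-numbered pairs correlated by -0.120 to 0.205, with 3 above 0.1 and no comparison with every pair above it. Weak correlation between such uneven libraries does not exclude shared animals. The block gave 1 called gene in central axons in place of 2. In somas of batch 1 it gave 0 in place of 516, but there it could use only replicates 1 and 3 of each group. Of 72 group means, 70 moved by less than 1 SD with TMM scaling.

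For control central axons against control somas, DESeq2 called 4 members among 392 of 9202 genes. All 4 groups in one fit called 9 among 3855 of 15355 genes. Of these 9, 2 were tested only with the Cre libraries that chose the members. The added setting, library size alone and without control soma replicate 3 (chosen after seeing the data), called 1 member among 3 of 11313 genes. Genes called were 5 of 9202 with library size alone, 46 of 24509 without the filter, and 0 to 4 with 1 library left out. For Cre against control central axons they were 216 (DESeq2), 34 (no filter) and 1 (all groups), and 0 to 5 with 1 left out (5 without control replicate 3). For the difference between axon types, control peripheral axons held no count of any member, so calls of members are not read. DESeq2 called 3 members among 731 of 15880 genes. The fit without the filter called 1 among 144 of 28516, and the added setting 3 among 210 of 15856. With 1 library left out 0 to 2 members were called. Genes called were 3 of 15880 (library size) and 0 to 79 with 1 left out, the highest without control soma replicate 3 (79 of 15856). Control peripheral axons against somas gave 607 (DESeq2), 268 (no filter), 526 (all groups) and 0 to 43 genes in place of 11, and Cre against control peripheral axons gave 27 (DESeq2) and 1 (all groups) in place of 0. In somas of batch 1 the count was 2244 (library size), 1902 (DESeq2), 1700 (no filter), 2114 (all groups), 3128 (added setting) and 0 to 3094 with 1 left out, the highest without control replicate 3. In somas of batch 2 it was 21 (RLE), 257 (library size), 1163 (DESeq2), 162 (no filter), 175 (all groups) and 0 to 1826 with 1 left out, the highest without control replicate 5. The cause of these shifts was not tested. Depth limits the member values outside the central axons, of which 172 of 207 were at or under 3 counts, worth 0.153 to 0.833 CPM.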
